A study of Mus musculus with 69 samples.

Results

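The comparison is between the pituitaries of young female mice with 1 altered Zeb1 allele (Zeb1_200H, here 200H) and those of wild-type mice (WT). All genes of the gland were considered, and the members are 7 libraries, 4 of 200H and 3 of WT, out of 69 in the series. The mice were virgin C57BL/6J females aged 8 to 12 weeks, staged for proestrus, the phase of the estrous cycle before ovulation. In 200H mice 1 of the Zeb1 alleles carries base changes that destroy the sites for miR-200a and miR-200b in its 3′ UTR, and the other allele is normal. WT mice have both alleles normal, and Zeb1_200M mice (200M), which serve here for comparison with 4 libraries, have both altered. The altered allele is a germline knock-in, present in every cell of the mouse, that came from a pair of embryonic stem cell clones and was backcrossed to C57BL/6J, and the labels do not give the clone behind each mouse. RNA came from the whole gland, so that a change in the number of cells of a type cannot be told apart from a change in the RNA of each cell. Older pituitaries (28 to 36 weeks, after a breeding trial) and young hypothalamus and ovary, each with 4 WT and 4 200H libraries, were fitted in the same way.

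Total counts ran from 9458146 to 10427482 in WT, from 9274872 to 11913710 in 200H and from 7560888 to 13342430 in 200M. Values below are CPM, a gene's count divided by its library's total and given on the usual scale of that unit, with totals scaled by TMM over the young pituitary libraries, given for WT in the order of replicates 1, 2 and u, where u is a library whose column carries no usable number, and for 200H and 200M in the order of replicates 1 to 4. The tissue was as labelled, since Gh and Prl, the genes of growth hormone and prolactin, were the most abundant pair of genes in each WT and 200H library, with Gh at 25744 to 32131 CPM in WT. Prl took 12.5 to 14.5% of all counts in WT and 3.06 to 6.11% in 200H, and the TMM factors, 0.919 to 0.944 in WT and 0.989 to 1.07 in 200H, moved with it. On the first principal component over the 2000 most variable genes WT lay between −38.5 and −35.8, 200H between 8.19 and 11.4 and 200M between 14.9 and 21.1. Replicate 3 of 200H stood apart from the other 200H libraries, with a chi-square per degree of freedom of 10.7 to 16.9 against them, where pairs of the other three gave 4.79 to 6.33. No 2 libraries of a group agreed within sampling noise, the smallest such value being 3.39. Counts of gene lists that replicate 3 moved by more than 1.5-fold are given below with and without it.

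Zeb1 is a zinc-finger repressor of transcription that binds E-boxes with the core CAGGTG or CAGGTA and holds down genes of epithelial cells, and its relative Zeb2 binds the same sites. The miR-200 microRNAs lower Zeb1 and Zeb2 through sites in their 3′ UTRs, and Zeb1 represses the genes of these microRNAs, so that each restrains the other. The anterior pituitary is an epithelial gland of hormone-secreting cells that are electrically excitable, and the posterior lobe holds the endings of hypothalamic neurons and the glia called pituicytes.

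The microRNAs whose sites are lost fall into a pair of families by their seed, the stretch from base 2 to base 8 that pairs with a target. They are shown because the seed defines the altered sites, with the seed in capitals (RefSeq, GRCm38.p6, 5′ to 3′).
mmu-miR-200b-3p: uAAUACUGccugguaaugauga
mmu-miR-200c-3p: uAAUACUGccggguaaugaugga
mmu-miR-429-3p: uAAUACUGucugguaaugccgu
mmu-miR-200a-3p: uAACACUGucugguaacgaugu
mmu-miR-141-3p: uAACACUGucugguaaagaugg
The 3 sequences shown first share a seed, matched in a UTR by CAGTATT, and the other two share another, matched by CAGTGTT. The genes of miR-200b, miR-200a and miR-429 lie within chr4:156053916–156055706 and those of miR-200c and miR-141 within chr6:124717917–124718346, both on the minus strand.

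Zeb1 RNA was higher in the heterozygous pituitary, and the transcripts that carry the miR-200 genes were lower. Zeb1 (ENSMUSG00000024238) was at 98.5, 95.6 and 95.6 CPM in the WT libraries and at 135, 129, 127 and 129 CPM in the 200H libraries. The groups did not overlap, and the lowest 200H library stood well clear of the highest WT library. The log2 fold change was 0.44 (standard error 0.067, adjusted p = 0.000895). Gm13648 (ENSMUSG00000086549, chr4:156052715–156059802), the noncoding host of miR-200b, miR-200a and miR-429, was at 15.5, 17.6 and 14.6 CPM in WT and at 2.58, 2.29, 4.09 and 3.05 CPM in 200H. Each 200H library lay far below each WT library, and the log2 fold change was −2.40 (standard error 0.19, adjusted p = 6.12e-06). Gm15884 (ENSMUSG00000087327, chr6:124715573–124718831), the host of miR-200c and miR-141, was scarce, with 2.35, 2.80 and 1.61 CPM in WT and 0.344, 0.424, 0.399 and 0.948 CPM in 200H. The groups again did not overlap, with a log2 fold change of −2.08 (standard error 0.42, adjusted p = 0.00603). Zeb2, which also carries miR-200 sites, was at 53.9, 50.5 and 45.3 CPM in WT and 45.9, 45.1, 50.3 and 56.6 CPM in 200H. Its groups overlapped, with a log2 fold change of −0.0031 (standard error 0.10, adjusted p = 0.989). Host transcripts are read here in place of the mature microRNAs, which these libraries do not measure.

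**Figure D1:**
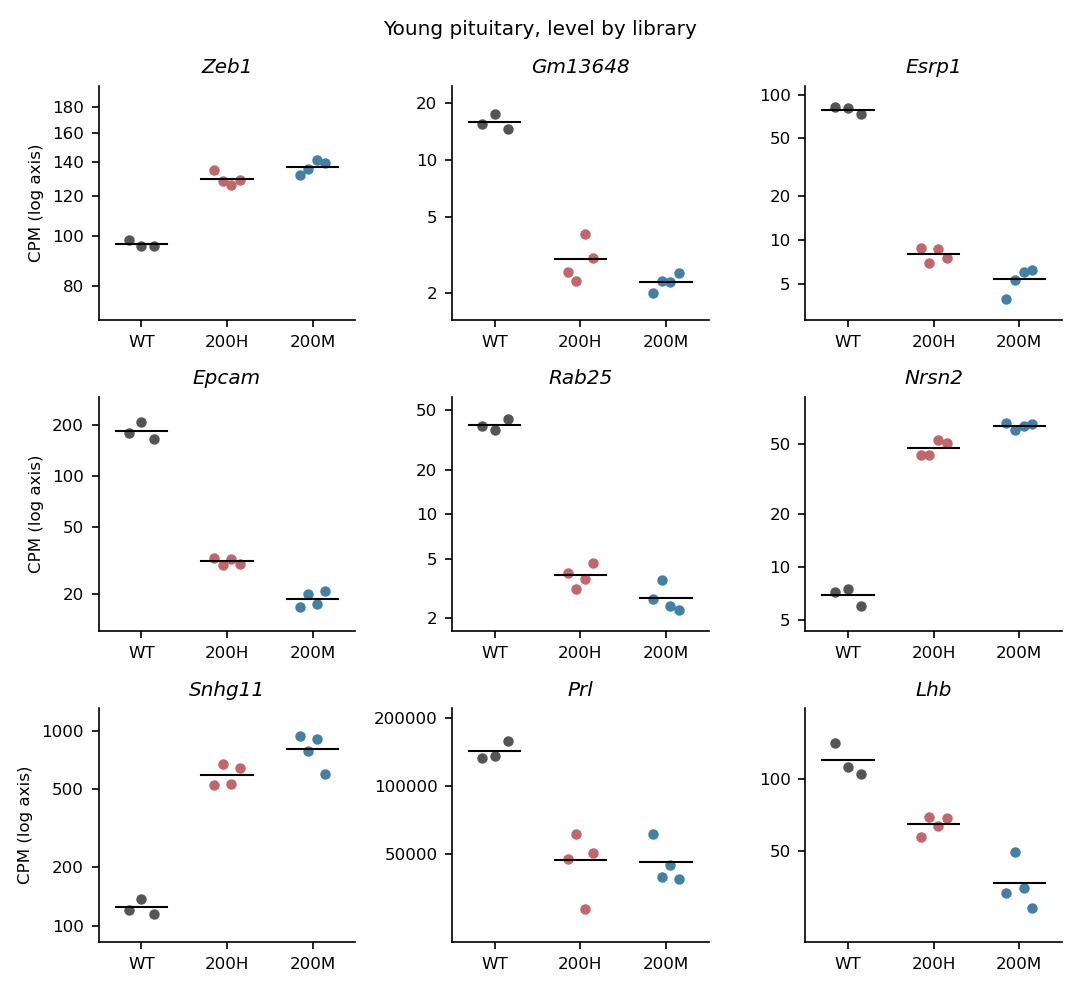
CPM (log axis) of 9 genes in each young pituitary library, by genotype (3 WT, 4 200H, 4 200M), 1 panel a gene. Points are libraries and the bar is the mean of the group. The 200H libraries lie apart from WT in every panel, upward for Zeb1, Nrsn2 and Snhg11 and downward for Gm13648, Esrp1, Epcam, Rab25, Prl and Lhb. Esrp1, Epcam, Rab25, Nrsn2 and Snhg11 were picked among genes whose groups did not overlap.

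Across the transcriptome, 1185 of 18051 genes tested were raised in 200H, which is 6.56%, and 1033 were lowered, which is 5.72%, at an adjusted p under 0.05 by edgeR's quasi-likelihood test. These shares are the background for the counts of gene lists below. Of the genes called, 259 were raised and 272 lowered by more than 2-fold, and the median log2 fold change was 0.63 among those raised and −0.60 among those lowered. The median over all genes was 0.0067. When libraries were scaled by their totals alone, in which the smaller Prl share of 200H is not allowed for, 2328 genes were raised and 595 lowered and the median over all genes was 0.13. Leaving out WT replicate u, 1 of only 3 WT libraries, took the count of called genes from 2218 to 1196, and leaving out WT replicate 1 took it to 1321. Where 1 library moves the count of a list by more than 1.5-fold, the count without it follows, and members called only without a library were named after their values were seen.

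Esrp1, Epcam and Rab25, known from epithelial cells, were among the genes lowered with the smallest p. Esrp1 (ENSMUSG00000040728, chr4:11331933–11386783), an RNA-binding protein that sets the epithelial pattern of alternative splicing, was at 81.9, 80.7 and 73.8 CPM in WT and 8.78, 6.96, 8.69 and 7.48 CPM in 200H. No 200H library came near the WT range, and the log2 fold change was −3.29 (standard error 0.10, adjusted p = 1.76e-09). Epcam (ENSMUSG00000045394, chr17:87635979–87651129), a cell adhesion protein of epithelia, was at 180.1, 209 and 165 CPM in WT and 32.7, 29.8, 32.2 and 29.9 CPM in 200H. The 4 heterozygous libraries were close together and all below WT, with a log2 fold change of −2.56 (standard error 0.091, adjusted p = 3.78e-09). Rab25 (ENSMUSG00000008601, chr3:88542029–88548300), a small GTPase of recycling endosomes in epithelial cells, was at 39.04, 36.9 and 43.95 CPM in WT and 4.05, 3.14, 3.69 and 4.74 CPM in 200H. The log2 fold change was −3.35 (standard error 0.14, adjusted p = 1.59e-08), without overlap. Galnt3, which starts O-linked sugar chains on secreted proteins, was at 31.8, 25.8 and 30.4 CPM in WT and 2.24, 2.63, 2.10 and 3.48 CPM in 200H, a log2 fold change of −3.48 (standard error 0.17, adjusted p = 6.06e-08). Esrp1, Epcam and Rab25 were singled out by the study from these same libraries. Genes named for smallest p or largest change, here and below, were picked among those whose groups did not overlap. Their separation was thus set by the choice. Called list members named below were chosen by smallest p, which also favours separation. The share of all genes without overlap is not given here.

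Lsr, a protein of tricellular tight junctions, fell from 40.9, 38.1 and 40.3 CPM in WT to 9.21, 9.42, 10.3 and 10.2 CPM in 200H. The desmosomal cadherin Dsg2 fell from 104, 108 and 104 CPM to 41.6, 41.1, 40.1 and 40.3 CPM, with the 4 heterozygous libraries within 2 CPM of each other. Their log2 fold changes were −2.01 (adjusted p = 7.82e-08) for Lsr and −1.36 (adjusted p = 1.38e-07) for Dsg2. Hmcn1, a large extracellular matrix protein, fell by 1.52 on the log2 scale, and Tmc4, a membrane protein of epithelia, by 2.11. Tmc4 overlaps Leng1 on the same strand, so that reads over both may not be assigned cleanly. The 200H libraries lay below the WT libraries for each of these genes, as the choice of genes required. The lowered genes of largest change were Capn8, a calpain protease of mucosal cells, Panct2, a noncoding RNA, and the myosin Myo1h. Capn8 was at 34.5, 26.3 and 42.99 CPM in WT and 1.12, 2.46, 0.599 and 0.843 CPM in 200H, a log2 fold change of −4.72 (standard error 0.29, adjusted p = 4.72e-07). Panct2 had a log2 fold change of −4.03 (standard error 0.39) and Myo1h one of −3.56 (standard error 0.39), both from under 9 CPM in WT to under 1 CPM in 200H.

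Of 33 tested genes of epithelial adhesion and junctions, 0 were raised and 16 lowered, with a median log2 fold change of −0.70 beside 0.0067 for all genes. Cdh1, which codes for E-cadherin and is a textbook target of Zeb1, did not differ detectably. Its values were 12.5, 12.8 and 15.5 CPM in WT and 17.1, 14.9, 13.1 and 10.8 CPM in 200H, overlapping, with a log2 fold change of 0.06 (standard error 0.16, adjusted p = 0.873). Of 20 genes of epithelial polarity and membrane traffic 13 were lowered and 1 raised, with a median of −1.02. Ap1m2, the adaptor subunit that sorts proteins to the basolateral membrane, was at 23.6, 23.5 and 27.98 CPM in WT and 1.89, 2.04, 2.80 and 3.69 CPM in 200H (log2 fold change −3.27, adjusted p = 3.71e-07). Myo5c, a myosin of exocrine epithelia, fell by 1.98 on the log2 scale. The member that rose was Prom2, a protein of membrane protrusions, at 0.69 (adjusted p = 0.0147), which was no longer called without WT replicate 2 or u. Without 200H replicate 3 the count raised was 2, with Tmprss2, a membrane protease, at 0.86 (adjusted p = 0.0244). Of these 2 lists, 14 and 12 members were lowered without WT replicate 1.

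Among the 3 splicing regulators of epithelia, Esrp2 fell along with Esrp1, from 1.74, 3.81 and 2.25 CPM to 0.775, 1.02, 0.899 and 1.26 CPM (log2 fold change −1.37, adjusted p = 0.028), and Rbm47 was uncalled at 0.30 (adjusted p = 0.13). Esrp2 lost its call without 200H replicate 1 or without WT replicate 2 or u. Of 8 tested transcription factors of epithelia 3 were lowered. Ehf, an Ets factor, was at 18.4, 32.02 and 36.2 CPM in WT and 7.75, 6.54, 2.40 and 6.21 CPM in 200H, a log2 fold change of −2.31 (adjusted p = 0.000192). Klf5, a zinc-finger factor, fell by 0.62 on the log2 scale. Grhl2, a factor that activates Cdh1 and Epcam in other epithelia, was at 3.07, 2.80 and 3.0 CPM in WT and 4.13, 2.80, 3.20 and 3.37 CPM in 200H. Those groups overlapped, with a log2 fold change of 0.20 (standard error 0.24, adjusted p = 0.667). Of 8 tested keratins, the filament proteins of epithelia, 3 were lowered, namely Krt7 at −2.47, Krt8 at −1.58 and Krt18 at −1.35, and the adjusted p was 0.000693 or less for each. Without WT replicate u, Krt90 was raised (1.81, adjusted p = 0.0366).

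Zeb1 binds E-boxes, so the promoters of the called genes were searched for CAGGTG and CAGGTA on both strands (CACCTG and TACCTG on the other). The window ran from 250 bases before to 50 after each RefSeq start site on GRCm38.p6, and a match to any of these words counted. Of all 32851 promoters 29.5% held at least 1, and of the 11553 tested genes with a promoter entry, 64.0% of those tested, 28.9% did. Among genes raised in 200H the share was 30.4%, among those lowered 39.6%, and among uncalled genes 28.0%. It was 52.7% (88 of 167) among genes lowered by more than 2-fold and 74.3% (26 of 35) among those lowered by more than 4-fold. Genes raised by more than 2-fold had 33.5%. At least 2 matches were found in 5.24% of tested genes, 3.74% of those raised, 11.6% of those lowered and 40.0% of those lowered by more than 4-fold. The E-box CAGCTG, with another core, was in 18.4% of tested genes and 20% of those lowered by more than 4-fold, and CACGTG in 11.3% and 5.71%. The median GC content was 60.7% over tested genes and 56.7% over those lowered by more than 4-fold. These shares describe letters in a fixed window, and binding was not measured.

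The following windows show the matches in promoters of the strongly lowered epithelial genes and of the miR-200b host, with the match in capitals and the strand of the gene written 5′ to 3′ (RefSeq, GRCm38.p6).
Epcam, chr17:87635780-87635809, plus strand, match from −187: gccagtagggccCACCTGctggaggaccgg
Epcam, chr17:87635948-87635977, plus strand, match from −19: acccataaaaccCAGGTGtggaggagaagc
Rab25, chr3:88548326-88548355, minus strand, match from −64: catcgctccaccCACCTGtgcccCAGGTGc
Tmc4, chr7:3677571-3677600, minus strand, match from −35: tcacctagtggcCAGGTGcagacctgtagc
Galnt3, chr2:66124820-66124849, minus strand, match from −44: acctggagcgctCAGGTAggaccggggcgg
Lsr, chr7:30973521-30973550, minus strand, match from −69: gaggcaggagcgCACCTGagtcagcccact
Krt7, chr15:101412347-101412376, plus strand, match from −44: ccgccctgtcccCACCTGtgtgcgctcagc
Gm13648, chr4:156059903-156059932, minus strand, match from −118: ccccgagggacaCACCTGtttgggggccag
Gm13648, chr4:156059857-156059886, minus strand, match from −72: gcaggcaacagaCACCTGcactgggcgggg
Positions count the first base of the match from the start site. The Rab25 window holds 2 matches, and the promoters of Galnt3 and Lsr held 4 and 5 in all. Esrp1, Zeb1 and Cdh1 had no entry.

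**Figure D2:**
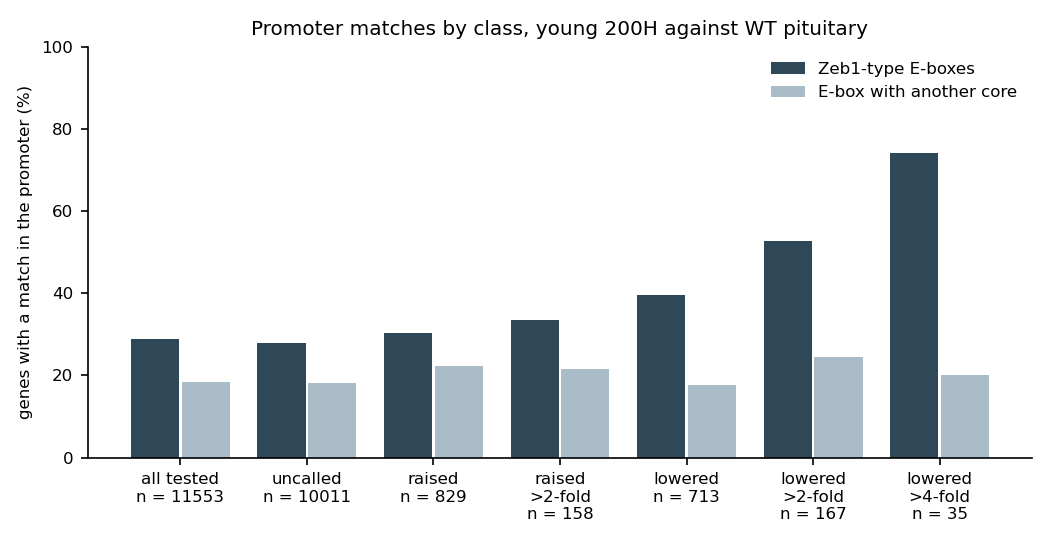
Percent of genes with at least 1 match to CAGGTG or CAGGTA (dark bars) and to CAGCTG (light bars), either strand, in the promoter window, by class of genes in young 200H against WT pituitary. The dark bars rise from 28.9% of all tested genes to 74.3% of those lowered by more than 4-fold, and the light bars stay between 17.7% and 24.6%.

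Genes typical of mesenchymal cells did not move as one. Of 33 tested, 5 were raised and 2 lowered, with a median of 0.11. Those raised included Cdh11 (log2 fold change 1.05, adjusted p = 0.000449) and Cdh2 (0.37, adjusted p = 0.0124), the cadherins of mesenchyme and nerve, and the adhesion proteins Ncam1 (0.59, adjusted p = 0.000107) and Thy1 (0.73, adjusted p = 0.00844). Col1a2, a chain of type I collagen, was lowered, from 512, 411 and 491 CPM in WT to 150.0, 206, 143 and 141 CPM in 200H, with no overlap (log2 fold change −1.55, standard error 0.12, adjusted p = 6.01e-06). Its partner chain Col1a1 was at 45.6, 38.6 and 39.3 CPM in WT and 38.4, 51.6, 47.7 and 38.7 CPM in 200H, which overlapped. Snai2, a repressor of the epithelial state in its own right, was lowered at −1.13 (standard error 0.25, adjusted p = 0.00917), though not without WT replicate u. Vim at 0.42 (adjusted p = 0.079), Fn1 at 0.24 (adjusted p = 0.402) and Acta2 at 0.60 (adjusted p = 0.356), which define the list, were uncalled.

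Of the raised genes named here, Nrsn2 and Snhg11, both known from neurons, had the smallest p. They too were picked among genes whose groups did not overlap. Nrsn2 (ENSMUSG00000059361, chr2:152368755–152376638), a vesicle membrane protein of neurons, was at 7.15, 7.50 and 6.0 CPM in WT and 43.2, 43.2, 53.02 and 50.7 CPM in 200H. Every 200H library was far above every WT library, with a log2 fold change of 2.80 (standard error 0.13, adjusted p = 4.45e-08). Snhg11 (ENSMUSG00000044349, chr2:158375638–158386145), a noncoding RNA abundant in neurons, was at 120.2, 138 and 115 CPM in WT and 524, 672, 531 and 641 CPM in 200H. It rose by 2.26 on the log2 scale (standard error 0.11, adjusted p = 4.45e-08) without overlap. Dpp6, a partner subunit of A-type potassium channels, was at 51.5, 59.1 and 62.6 CPM in WT and 153, 163, 155 and 159 CPM in 200H, a log2 fold change of 1.46 (standard error 0.082, adjusted p = 2.77e-07).

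Akap6, an anchor of protein kinase A, was at 7.36, 14.9 and 12.8 CPM in WT and 68.2, 71.9, 63.1 and 66.6 CPM in 200H, and Faim2, an inhibitor of Fas-induced cell death in neurons, at 22.6, 28.2 and 21.3 and 75.7, 87.4, 87.2 and 97.7 CPM. Both rose without overlap, with log2 fold changes of 2.55 (adjusted p = 1.09e-06) and 1.87 (adjusted p = 6.48e-07). Nnat, an imprinted gene for a small membrane protein of the endoplasmic reticulum, was at 1359, 1431 and 1314 CPM in WT and 2940.3, 2425, 2797 and 2830.1 CPM in 200H, a log2 fold change of 1.02 (standard error 0.072, adjusted p = 2.19e-06). The raised genes of largest change also included Trank1 at 2.96 (standard error 0.27), the neuronal calcium sensor Vsnl1 at 2.83 (standard error 0.29) and the aldo-keto reductase gene Akr1cl at 2.81 (standard error 0.23), all under 3 CPM in each WT library. Akr1cl was at 0.171 ± 0.208 CPM (SD, n = 4) in WT hypothalamus, where Vsnl1 was at 756 ± 44.7 CPM.

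Among neuronal lists, RNA-binding and splicing proteins had the highest share of raised members, 11 of 18 with 0 lowered (median 0.34). Elavl3, a neuronal Hu protein that stabilises mRNA, was at 4.50, 6.27 and 7.50 CPM in WT and 17.6, 22.4, 20.1 and 18.2 CPM in 200H. Its groups did not overlap (log2 fold change 1.70, standard error 0.17, adjusted p = 4.36e-05). The splicing factors Celf5 (1.24, adjusted p = 0.000739), Rbfox1 (1.30, adjusted p = 0.00158) and Celf4 (0.54, adjusted p = 0.00103) were also raised, and Celf2 was uncalled at −0.04 (adjusted p = 0.781). Of 27 neuronal adhesion genes 11 were raised and 0 lowered (median 0.41). They included Nlgn2 (0.69) and Nlgn3 (0.54), neuroligins that join synapses, and Cntn1 (0.86) and Nfasc (0.34) of axons, each with an adjusted p of 0.00562 or less. L1cam (−0.58, adjusted p = 0.0873), Nrcam (0.14, adjusted p = 0.307) and Chl1 (−0.13, adjusted p = 0.653) of the same list were uncalled, but L1cam was called as lowered without WT replicate 1 or without 200H replicate 2. Without WT replicate u 7 members of each list were raised, and without WT replicate 1, 7 of the RNA-binding proteins. Without 200H replicate 2 the splicing regulator Srrm4 was lowered (−0.56, adjusted p = 0.0161).

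Genes of the neuronal cytoskeleton and growth cone were raised in 10 of 27 cases and lowered in 1 (median 0.23). Map2, the dendritic microtubule protein, was at 374, 412 and 399.9 CPM in WT and 610, 671, 619 and 671 CPM in 200H (log2 fold change 0.71, adjusted p = 2.15e-05), with no overlap. Dcx, the microtubule protein of migrating neurons, rose by 0.88 and Basp1, of growth cones, by 0.92 on the log2 scale. Map1b was uncalled at 0.04 (adjusted p = 0.88). Dclk1, a kinase related to Dcx, was lowered, from 820.0, 943 and 897 CPM in WT to 512, 579, 391 and 576 CPM in 200H (log2 fold change −0.77, adjusted p = 0.000641). Synaptic vesicle and exocytosis genes moved in both directions, 13 of 48 raised and 6 lowered (median 0.15). The raised members included the dynamins Dnm1 (1.54) and Dnm3 (0.72), the synapsin Syn2 (0.88) and the rabphilin gene Rph3a (1.38), each with an adjusted p of 0.00012 or less. The lowered ones included the synaptotagmins Syt13 (−0.69) and Syt3 (−0.69), Rab3d of secretory granules (−1.01) and Cadps2 (−0.56), with adjusted p from 0.000233 to 0.00812, and without WT replicate 1 the count lowered was 3, Cadps2 being among those lost. Snap25 (0.15, adjusted p = 0.188), Syp (0.07, adjusted p = 0.664) and Syn1 (0.01, adjusted p = 0.977), the commonest markers of the presynapse, were uncalled. Of 7 genes of Rest, which silences neuronal genes outside neurons, and its corepressors, 0 were called, though without 200H replicate 3 the demethylase gene Kdm1a was lowered (−0.30, adjusted p = 0.0299). Rest itself was at 13.8, 14.4 and 11.7 CPM in WT and 11.7, 13.3, 11.3 and 11.9 CPM in 200H, which overlapped (log2 fold change −0.13, standard error 0.13, adjusted p = 0.61).

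Ion channels and transmitter receptors, through which pituitary cells and neurons set their firing, were raised more often than lowered. Of 68 potassium channel genes 19 were raised and 6 lowered (median 0.38). The leak channel Kcnk2 was at 72.7, 60.2 and 62.2 CPM in WT and 112, 114, 132 and 117 CPM in 200H, which did not overlap (log2 fold change 0.88, adjusted p = 4.62e-05). Kcnma1, the BK channel, rose by 0.56, Kcnk3 by 1.16 and the beta subunit Kcnab1 by 1.14 on the log2 scale. Kcnk12 fell by 1.06, Kcnip1 by 1.91, Kcnk1 by 0.49 and Kcnh8 by 0.46. The count raised was 11 without WT replicate u, and the count lowered 3 without WT replicate 1. Kcnk1 lost its call without WT replicate 1 or u, and Kcnip1 without WT replicate u. Of 42 calcium, sodium and HCN channel genes 14 were raised and 2 lowered (median 0.28). Cacna1i, a T-type calcium channel, was at 30.1, 26.9 and 28.8 CPM in WT and 53.5, 52.7, 59.4 and 56.6 CPM in 200H, with the 4 heterozygous libraries all well above WT (log2 fold change 0.97, adjusted p = 1.87e-05). Cacna1h, also T-type (1.06), the N-type channel Cacna1b (0.59) and the sodium channel Scn2a (0.72) were raised, and Scn4a (−0.59) and Scn8a (−0.27) lowered. Without WT replicate 1 there were 8 raised, and Scn4a and Scn8a both lost their calls without any 1 of 6 of the 7 libraries, 200H replicate 3 being the exception, and without 200H replicate 1 the lowered member was Scn11a (−0.72, adjusted p = 0.0479). Of 44 receptor genes for glutamate, GABA, glycine and acetylcholine 15 were raised and 1 lowered (median 0.35). Grin2b, an NMDA receptor subunit, was at 3.27, 7.17 and 5.15 CPM in WT and 22.2, 21.4, 15.98 and 19.2 CPM in 200H (log2 fold change 1.94, standard error 0.22, adjusted p = 8.11e-05). The AMPA receptor subunit Gria2 (0.54) and the GABA receptor subunit Gabrb1 (0.87) rose, and the metabotropic receptor Grm5 fell by 0.98, a call lost without WT replicate 2. Of 63 axon guidance genes 11 were raised and 3 lowered (median 0.21), among them Slit1 (0.70) and Sema4a (0.95) upward and Plxnb1 (−0.50), Robo1 (−0.48) and Epha1 (−1.75) downward. The 11 raised guidance genes became 5, 3 and 3 without WT replicates 1, 2 and u, and 7 and 6 without 200H replicates 1 and 4, and the 3 lowered became 5 without 200H replicate 3. Sema4a was uncalled without WT replicate 1 or 2.

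The genes raised in 200H pituitary had a higher median level in hypothalamus than in pituitary. It was 57.5 CPM in WT hypothalamus, 21.6 CPM in WT pituitary and 32.7 CPM in 200H pituitary, each tissue having been scaled by itself. For the lowered genes the medians were 14.6, 35.0 and 21.9 CPM. Of the raised genes 63.2% were higher in WT hypothalamus than in 200H pituitary, beside 26.5% of the lowered and 37.1% of the uncalled genes. Nrsn2 and Grin2b stood in 200H pituitary far below their level in WT hypothalamus, which was 386 ± 22.1 CPM for Nrsn2 and 938 ± 41.5 CPM for Grin2b (SD, n = 4), whereas Akr1cl was all but absent there. Of 14 markers of posterior-lobe and hypothalamic neurons 8 were too low to be tested, with at most 1.58 CPM in any WT or 200H library, and of the 6 tested 2 were raised and 2 lowered. Oxt, the oxytocin gene, was at 0.784 to 1.74 CPM in WT and 0.737 to 2.93 CPM in 200H. Avp, the vasopressin gene, was at 0.112 to 1.43 CPM and 0.421 to 0.689 CPM, and Gad1, a gene of GABA synthesis, at 0 to 0.409 CPM and 0.0849 to 0.632 CPM. The raised members were Snhg11, far more abundant in WT pituitary than Oxt, Avp or Gad1, and the vesicular GABA transporter Slc32a1 (1.81, adjusted p = 0.0412, under 2 CPM in each library). Slc32a1 lost its call without any 1 of the WT libraries and was too low to be tested without 200H replicate 1, 3 or 4. The lowered ones were Gad2, which makes GABA, from 65.4, 66.5 and 69.7 CPM in WT to 33.6, 37.7, 27.1 and 34.97 CPM in 200H, and Slc17a6, the vesicular glutamate transporter, from 89.2, 98.9 and 109 CPM to 44.1, 62.3, 19.3 and 54.98 CPM, the latter uncalled without WT replicate u.

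**Figure D3:**
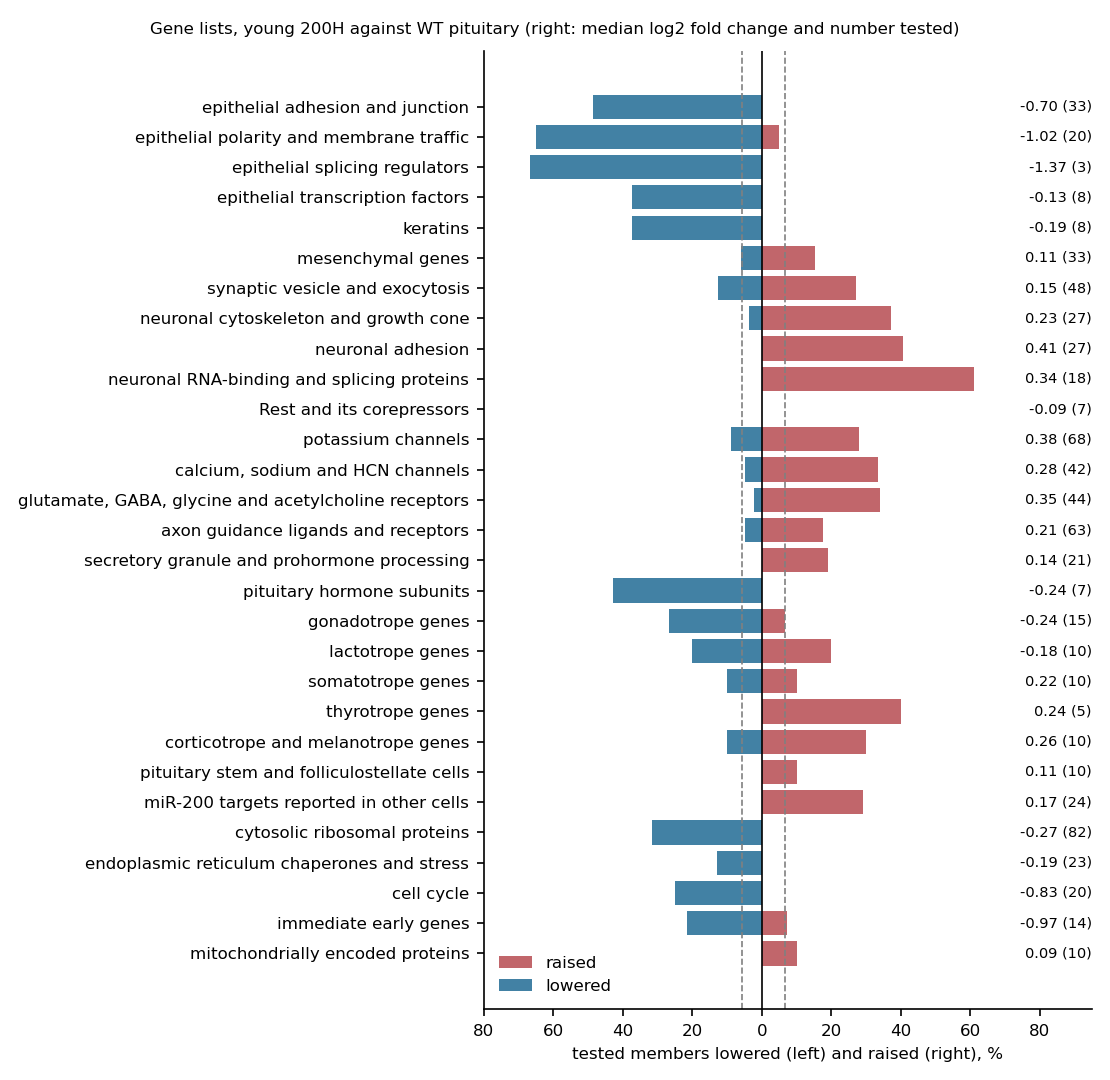
Percent of tested members raised (bars to the right) and lowered (bars to the left) in young 200H against WT pituitary for 29 gene lists, with the median log2 fold change and the number tested printed at the side. Dashed lines mark the shares over all genes, 6.56% raised and 5.72% lowered. Epithelial lists extend to the left and neuronal and channel lists mainly to the right.

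Of 7 hormone subunit genes 3 were lowered in 200H and 0 raised. The 3 were those of prolactin and luteinizing hormone and the subunit that luteinizing hormone shares with other hormones. Prl (ENSMUSG00000021342, chr13:27057570–27065205) was at 133600, 135230 and 158140 CPM in WT and 47650, 61793, 28586 and 50571 CPM in 200H. All 200H libraries were below all WT libraries, with replicate 3 the lowest, and the log2 fold change was −1.58 (standard error 0.18, adjusted p = 8.25e-05). Lhb (ENSMUSG00000100916, chr7:45420820–45421897), which codes for the beta chain of luteinizing hormone, was at 141, 112 and 105 CPM in WT and 57.1, 69.5, 63.2 and 68.5 CPM in 200H. The groups did not overlap, and the log2 fold change was −0.88 (standard error 0.11, adjusted p = 0.000163). Cga, for the alpha chain that these glycoprotein hormones have in common, was at 1035, 916 and 833 CPM in WT and 707, 637, 783 and 611 CPM in 200H, a log2 fold change of −0.43 (standard error 0.092, adjusted p = 0.00817) that was not called without WT replicate 1 or when libraries were scaled by their totals alone. Fshb, the beta subunit of follicle-stimulating hormone, varied widely within both groups, at 92.3, 117 and 60.2 CPM in WT and 36.5, 74.9, 113 and 78.4 CPM in 200H. Its log2 fold change was −0.24 (standard error 0.28, adjusted p = 0.655). Gh of somatotropes (0.26, standard error 0.098, adjusted p = 0.114), Tshb of thyrotropes (0.24, standard error 0.14, adjusted p = 0.318) and Pomc of corticotropes (−0.07, standard error 0.11, adjusted p = 0.757) were uncalled, with overlapping groups. Gh was called as raised in 5 of 16 alternatives, among them scaling by library totals alone and leaving out 200H replicate 4.

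Of 15 gonadotrope genes 1 was raised and 4 lowered. Tgfbr3l, the inhibin B co-receptor of gonadotropes, was at 159.6, 129 and 139 CPM in WT and 72.9, 68.9, 88.5 and 85.8 CPM in 200H, without overlap (log2 fold change −0.84, adjusted p = 0.000162). Nr5a1, the factor that activates Lhb and Gnrhr, was raised, at 9.61, 7.61 and 10.1 CPM in WT and 14.8, 13.4, 16.5 and 10.8 CPM in 200H (log2 fold change 0.62, adjusted p = 0.0297) but lost its call without any 1 of 5 of the 7 libraries, and kept it without 200H replicates 2 or 4. Gnrhr, the receptor for the hypothalamic releasing hormone, was uncalled at 0.19 (standard error 0.13, adjusted p = 0.372). Of 10 lactotrope genes, 2 were raised and 2 lowered. Drd2, the dopamine receptor that restrains prolactin release, fell by 0.37 on the log2 scale (adjusted p = 0.00607), with 109, 107 and 104 CPM in WT and 77.8, 77.7, 83.9 and 88.2 CPM in 200H, and was uncalled when libraries were scaled by their totals alone. Prlr, the prolactin receptor, rose by 0.60 (adjusted p = 0.00182). Gal, the neuropeptide galanin, rose by 1.75 (standard error 0.40, adjusted p = 0.0122), though its libraries overlapped, at 20.95, 13.4 and 37.7 CPM in WT and 78.8, 145, 37.6 and 59.4 CPM in 200H, and it was uncalled without WT replicate 1 or 2. Pou1f1, the lineage factor of lactotropes, somatotropes and thyrotropes, was uncalled at −0.28 (standard error 0.11, adjusted p = 0.125).

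Among 10 somatotrope genes Ghsr, the ghrelin receptor, was raised (1.02, adjusted p = 0.002) and Igf1r lowered (−0.35, adjusted p = 0.00426), and Ghrhr was uncalled (0.37, adjusted p = 0.0621) except without WT replicate 1 and in 4 other alternatives. Of 5 thyrotrope genes Trhr, the receptor for thyrotropin-releasing hormone (0.79, adjusted p = 0.00608), and Dio2, which activates thyroid hormone (0.54, adjusted p = 0.000804), were raised. Of 10 genes of corticotropes and melanotropes 3 were raised, namely the lineage factor Tbx19 (0.57, adjusted p = 0.00146), the receptor Crhr1 (0.72, adjusted p = 0.0232) and the glucocorticoid receptor gene Nr3c1 (0.64, adjusted p = 0.0136). The lowered one was Nr4a1 (−1.33, adjusted p = 0.00408), which is also an immediate early gene. Of 21 secretory granule and prohormone processing genes 4 were raised and 0 lowered, including Resp18 (0.64, adjusted p = 2.82e-05), Chga (0.34, adjusted p = 0.0134) and Vgf (1.14, adjusted p = 0.016), and Chgb was uncalled at −0.02 (adjusted p = 0.895). The counts raised were 2, 1 and 2 of 21 without WT replicates 1, 2 and u, Vgf being lost without 1 or 2 and Chga without 2 or u. Without WT replicate 1, Crhr1 and Nr3c1 lost their calls, which left 1 corticotrope gene raised. Crhr1 was also uncalled without WT replicate 2 or without 200H replicate 1 or 4, and Nr3c1 without WT replicate u. Of 10 genes of pituitary stem and folliculostellate cells 1 was raised, Cyp2f2 (0.45, adjusted p = 0.0122), though not without WT replicate u. Without 200H replicate 3, S100a1 was lowered (−0.59, adjusted p = 0.0191). The stem-cell factors Sox2 (0.12, adjusted p = 0.64) and Sox9 (0.20, adjusted p = 0.337) were uncalled.

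Genes of the cell cycle were lowered in 5 of 20 cases and raised in 0, with a median of −0.83. Their summed level was 120.0, 97.9 and 136 CPM in WT and 45.5, 65.4, 87.97 and 62.99 CPM in 200H, so that the groups did not overlap. Mki67, which marks cycling cells, was at 32.4, 27.3 and 36.4 CPM in WT and 6.46, 12.3, 20.97 and 12.4 CPM in 200H (log2 fold change −1.30, standard error 0.26, adjusted p = 0.00529). Top2a, the topoisomerase of dividing cells, fell by 1.39 (adjusted p = 0.00314) and Cenpf, a kinetochore protein, by 1.10 (adjusted p = 0.0113). The count lowered was 2 without WT replicate u, where Cenpf was no longer called, and 3 without WT replicate 1 or without 200H replicate 1, 2 or 4. In older pituitary 11 members passed the filter and 0 were called, with a median of 0.06.

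Cytosolic ribosomal protein genes were lowered in 26 of 82 cases and raised in 0, with a median of −0.27. Rpl4 was at 616, 620.5 and 654 CPM in WT and 483, 533, 459 and 467 CPM in 200H (log2 fold change −0.36, adjusted p = 0.00317), and Rplp0 fell by 0.53 and Rps2 by 0.35 on the log2 scale. The 200H libraries lay below the WT libraries for each of these 3, which were chosen among the called members of smallest p. Scaled by library totals alone, where the median of all genes was 0.13, the ribosomal median was −0.14 and 9 were lowered. Without WT replicate 1 the count was 7 and without WT replicate u 5, and it was 17, 21 and 16 without 200H replicates 1, 3 and 4. In older pituitary it was 1 of 81 at a median of −0.26. Of 23 chaperones and stress genes of the endoplasmic reticulum 3 were lowered, Atf4 (−0.39), Dnajb11 (−0.45) and Creld2 (−0.47), while Hspa5 was uncalled at −0.27 (adjusted p = 0.153). That count was 0 without WT replicate 1 or u, 1 without 200H replicate 3 or 4 and 5 without 200H replicate 2. Of 10 mitochondrially encoded genes 1 was called, mt-Nd5 upward at 0.27 (adjusted p = 0.0163), and not without WT replicate 2 or u. Without 200H replicate 3, 2 were raised, mt-Nd5 and mt-Co1 (0.17, adjusted p = 0.0329). With all libraries mt-Co1 was just short of a call (0.16, adjusted p = 0.0519), and it was called in 8 of 17 alternatives.

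Immediate early genes, which respond within minutes to stimulation or handling, varied between libraries of the same genotype. Their summed level was 1784, 4329.8 and 1630.3 CPM in WT and 995, 1191, 1657 and 1137 CPM in 200H, with WT replicate 2 the highest by far. In that library Fos stood at 547 CPM against 17.5 and 54.5 CPM in the other two WT libraries, and the 200H libraries were at 22.1, 8.49, 202 and 34.8 CPM. Of 14 tested 1 was raised and 3 lowered. Nr4a2 was at 469.5, 724 and 371 CPM in WT and 92.5, 259.7, 158 and 104 CPM in 200H, which did not overlap (log2 fold change −1.75, standard error 0.30, adjusted p = 0.0018). Nr4a1 and Fosl2 (−0.74) fell too, and Egr3 rose (1.06, adjusted p = 0.0295). The median of the list was −0.97, and −0.02 without WT replicate 2. Without 200H replicate 3 the count lowered was 7 and without 200H replicate 2 it was 5, and Egr3 lost its call without WT replicate 1 or without 200H replicate 1, 2 or 4. Fosl2 was uncalled without WT replicate 1 or u or 200H replicate 1 or 4. Fos, uncalled at −1.62 (adjusted p = 0.337), was called as lowered at −3.25 without 200H replicate 3 (adjusted p = 0.0264) and stood at 0.90 without WT replicate 2 (adjusted p = 0.627). In older pituitary 0 were called, with a median of 0.05.

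The lists of markers of other cells of the gland were as follows. Endothelial markers were uncalled in all 11 cases, at a summed 328 to 374 CPM in WT and 362 to 440.4 CPM in 200H, with Pecam1 at 0.12 (adjusted p = 0.585) and Cdh5 at 0.15 (adjusted p = 0.463). When libraries were scaled by their totals alone, 3 of the 11 were raised, beside 2328 of all 18051 genes. Of 10 pituicyte and astrocyte markers 5 were raised and 0 lowered, and their summed level was 342, 327 and 343 CPM in WT and 489, 485, 529.5 and 445 CPM in 200H. The groups did not overlap. Those raised included Vat1l (1.53, adjusted p = 1.44e-05) and the glutamate transporter Slc1a2 (0.85, adjusted p = 0.000444), both also abundant in hypothalamus. Gfap (0.24, adjusted p = 0.761), Rax (0.60, adjusted p = 0.398) and Nkx2-1 (0.34, adjusted p = 0.442), which define these cells, were uncalled and at under 8 CPM in each library. The part of these cells in the rise of neuronal genes was not tested. Of 3 tested oligodendrocyte markers 1 was lowered, Mbp, from 57.4, 63.5 and 61.1 CPM to 27.8, 30.2, 30.9 and 30.2 CPM (log2 fold change −1.02, adjusted p = 7.46e-06), while Mog was at 0 to 0.214 CPM in WT and at 0 in each 200H library.

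Of 7 mural cell markers Rgs5 was raised (0.58, adjusted p = 0.000577), and Pdgfrb, at 0.11 (adjusted p = 0.553), was not. Of 7 fibroblast markers Dcn rose (0.61, adjusted p = 0.0171) and Col1a2 fell, while Col3a1 was uncalled at −0.08 (adjusted p = 0.777). Of 9 macrophage markers Mrc1 (0.87, adjusted p = 0.0151) and Csf1r (0.56, adjusted p = 0.0279) were raised and Ptprc, the pan-leukocyte gene, was uncalled at 0.09 (adjusted p = 0.837). Dcn lost its call without WT replicate 1 or u, Mrc1 without WT replicate 2 and Csf1r without WT replicate 1 or u or 200H replicate 2 or 4. Of 5 red-cell genes 0 were called, at a summed 61.5 to 123 CPM in WT and 69.99 to 204 CPM in 200H, and without 200H replicate 1 Alas2 and Hba-a1 were raised. Of 6 bone and cartilage markers 2 passed the filter, of which Alpl fell by 1.39 on the log2 scale (adjusted p = 0.00244) and Col2a1 was at 3.27 to 4.72 CPM in WT and 2.97 to 6.19 CPM in 200H.

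Since the miR-200 hosts were lower, genes reported as miR-200 targets were examined. Of 24 targets known from other cells 7 were raised and 0 lowered, with a median of 0.17. Msn, the membrane linker moesin, was at 83.9, 76.6 and 87.4 CPM in WT and 119, 122, 109 and 119.7 CPM in 200H, without overlap (log2 fold change 0.52, standard error 0.078, adjusted p = 0.000782). Cfl2, a cofilin that severs actin (0.43, adjusted p = 0.0112), Ppm1f, a phosphatase (0.58, adjusted p = 0.0073), and the phospholipase Plcg1 (0.47, adjusted p = 0.00735) were also raised. The count raised was 2 without WT replicate u, which Cfl2 and Plcg1 did not survive, and 4 without 200H replicate 1 or 4. The annotated UTRs of Msn, Cfl2 and Ppm1f each held 2 matches to CAGTATT and that of Plcg1 held 0. Plcg1, another raised member and some uncalled members held no match to either seed, so the list is not one of genes with sites. Sec23a (0.20, adjusted p = 0.0973), with 3 matches to CAGTATT, and Qk (0.15, adjusted p = 0.275), with 3 to CAGTATT and 3 to CAGTGTT, were uncalled. Sec23a was called without 200H replicate 3.

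Over all tested genes, the share raised went with the number of CAGTATT matches in UTRs of at least 2133 bases, the longest of 3 length classes. There 10.0% of 3174 genes without a match were raised, 12.3% of 1118 with 1 match and 19.8% of 329 with 2 or more, and the median log2 fold change was 0.029, 0.062 and 0.12. The shares lowered were 6.46%, 5.28% and 2.43%. In UTRs of 50 to 895 bases 4.29% of genes without and 9.14% of 186 genes with 1 match were raised. In UTRs of 896 to 2132 bases the shares raised were 6.32%, 9.15% and 7.87% with 0, 1 and 2 or more matches. For CAGTGTT, the match of miR-200a and miR-141, the shares in the longest class were 10.3%, 12.2% and 13.2%. In UTRs of 896 to 2132 bases they were 6.54%, 8.02% and 3.96% with 0, 1 and 2 or more matches, and in those of 50 to 895 bases 4.58% with 0 and 3.15% with 1, so that the order of the longest class was not seen there. These shares are descriptions, as genes with long UTRs were raised more often whether or not they held a match.

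To set 1 altered allele beside 2, the 200M libraries were compared with the same WT libraries, which ties both comparisons to the same controls. In 200M, 2093 of 18199 genes were raised and 1820 lowered, 11.5% and 10.0%. The test of 200M against 200H directly called 3 genes higher and 4 lower of 18271, which is 0.0164% and 0.0219%. Counting genes at an unadjusted p under 0.05 gave 1081 of them, and DESeq2 called 47. The 7 calls became 26 without 200H replicate 3, 4 without 200M replicate 4, 1 without 200H replicate 1 or 4, and 0 without 200M replicate 1 or 3. Epcam was at 32.7, 29.8, 32.2 and 29.9 CPM in 200H and 16.8, 19.95, 17.4 and 20.9 CPM in 200M, without overlap (log2 fold change −0.74, adjusted p = 0.0158). Tmc4 differed between 200M and 200H by −0.76 on the log2 scale (adjusted p = 0.0399) and Tgfbr3l, at 45.3, 57.8, 46.9 and 52.2 CPM, by −0.64 (adjusted p = 0.0399). Peg10, an imprinted retrotransposon-derived gene, was at 349, 372 and 296 CPM in WT, 606, 749, 675 and 777 CPM in 200H and 1124, 981, 1111 and 1106 CPM in 200M. The 3 genotypes did not overlap, and 200M was above 200H by 0.62 (adjusted p = 0.0158). Grin2b was higher in 200M by 0.94 (adjusted p = 0.0399). Bpifa2, a secreted protein of salivary glands, was at 0 in all 3 WT libraries, at 0.430, 0.0849, 0.799 and 0.527 CPM in 200H and at 4.53, 3.96, 3.37 and 2.41 CPM in 200M (adjusted p = 0.0232 between the latter pair).

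Whether the heterozygote lay midway was tested against the midpoint of WT and 200M on the log scale. Of 18856 genes 174 lay above it, 0.923%, and 123 below it, 0.652%. Against the midpoint of the mean CPM on the linear scale, fitted with limma, 50 lay above and 158 below. Which direction had more calls thus depended on the scale. On the log scale the 297 became 170 without WT replicate u and 168 without 200H replicate 4. Esrp1 was at 3.92, 5.28, 6.0 and 6.22 CPM in 200M, and its 200H level was lower than the midpoint by 1.36 on the log2 scale (standard error 0.12, adjusted p = 1.74e-05), near the homozygote. Epcam was below the midpoint by 0.92 (standard error 0.081, adjusted p = 2.23e-05), as were Rab25 and Galnt3. Among raised genes Nrsn2 was above it by 1.18 (standard error 0.081, adjusted p = 1.53e-06), Snhg11 by 0.90, Faim2 by 0.80, Dpp6 by 0.63 and Nnat by 0.55. Nnat was at 2680.1, 2738, 2416 and 2415 CPM in 200M, which overlapped the 200H libraries. For other genes a difference from the midpoint was not called. Lhb was at 33.1, 49.6, 34.9 and 28.9 CPM in 200M, all below the 200H libraries, and 200H differed from the midpoint by −0.04 (standard error 0.12, adjusted p = 0.932). The corresponding values were −0.10 (standard error 0.087) for Tgfbr3l and 0.07 (standard error 0.21) for Vgf. Peg10 was above the midpoint by 0.21 (standard error 0.071, adjusted p = 0.178). Zeb1 itself, at 132, 136, 141 and 139.7 CPM in 200M, was above the midpoint by 0.17 (standard error 0.048, adjusted p = 0.0869), and neither passed the threshold.

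**Figure D4:**
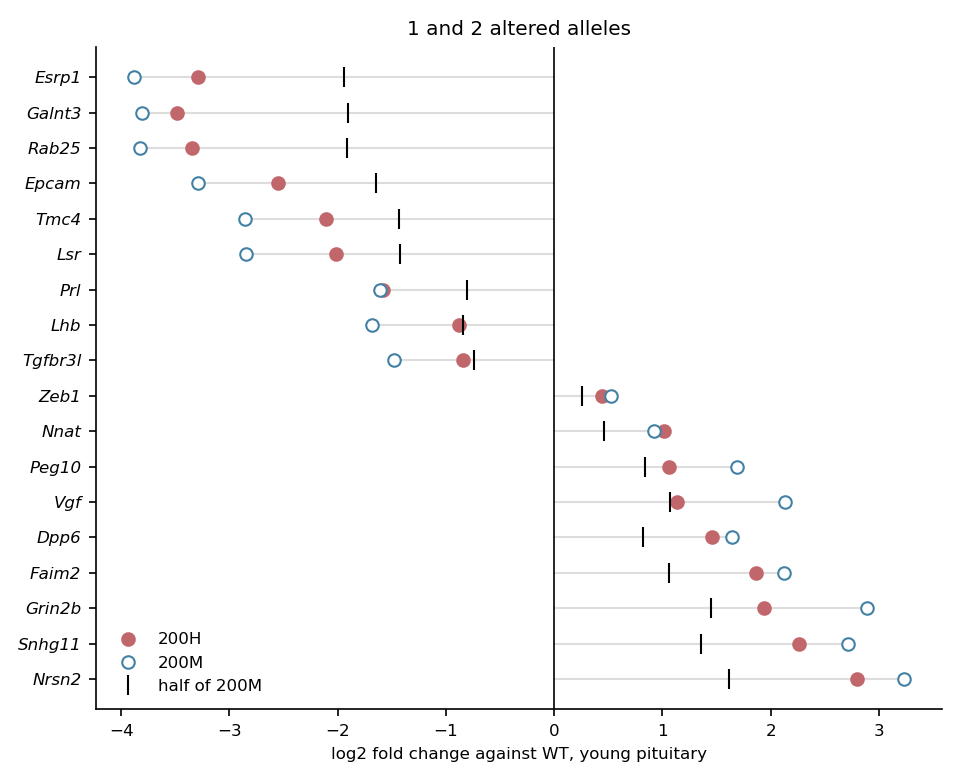
Log2 fold change against WT in young pituitary for 200H (filled points) and 200M (open points), with a tick midway between 0 and the 200M value, for 18 named genes. The filled points lie close to the open ones for Esrp1, Nrsn2 and Nnat and close to the tick for Lhb, Tgfbr3l and Vgf.

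The same comparison in older pituitary used other mice, poly(A) libraries without strand and another counting tool, so that cohort cannot be told apart from age, breeding history and library type. There 1058 of 14922 genes were raised and 767 lowered, 7.09% and 5.14%, and the sum of 1825 became 1159 without WT replicate 2 of that cohort. Across 10519 genes tested in both cohorts and averaging 50 counts or more, the log2 fold changes had a Pearson r of 0.79 and a Spearman rho of 0.66. Genes are not independent replicates and no p is given. Of 1058 young raised genes tested in both, 577 (54.5%) were also raised in older pituitary, which is 56.0% of the genes raised there and tested in both, and 380 of 895 lowered genes (42.5%) were also lowered, 51.4% of those lowered in the older cohort. None was called in opposite directions. Epcam (−2.88), Esrp1 (−3.80), Rab25 (−3.87), Nrsn2 (2.23), Prl (−1.22) and Lhb (−1.04) were called in the same direction in older 200H. Ruvbl2 overlaps Lhb on the other strand, and older libraries were counted without strand, which may affect the Lhb count. Cga (−0.58, adjusted p = 0.0655), Peg10 (0.54, adjusted p = 0.126) and Mbp (−0.55, adjusted p = 0.125) were not called there.

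The difference of the 200H effect between cohorts, tested as an interaction over 18240 genes, called 0 genes as higher (0.00%) and 2 as lower (0.0110%) in the young, while 1162 had an unadjusted p under 0.05 and DESeq2 called 4. Leaving out single libraries gave 0 to 5 genes, the lowest without young WT replicate u and the highest without young 200H replicate 3. In simulated counts this test called 19.4% of 1.5-fold and 67.2% of 2-fold differences, so few calls do not show that the effects were equal. Leng1 had a log2 fold change of −1.84 in young and −0.54 in older 200H (adjusted p of the difference 0.00973). Leng1 shares its strand with Tmc4, and the cohorts were counted with different tools and strand settings. Gm14377, a predicted gene, was at 5.52, 6.05 and 5.90 CPM in young WT and 1.03, 1.02, 0.599 and 0.632 CPM in young 200H. It had a log2 fold change of −2.77 in young and 0.30 in older 200H (adjusted p of the difference 0.0314). Gm14377 overlaps Ptpn5 on the opposite strand, and the older libraries were counted without strand, which may affect its count.

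**Figure D5:**
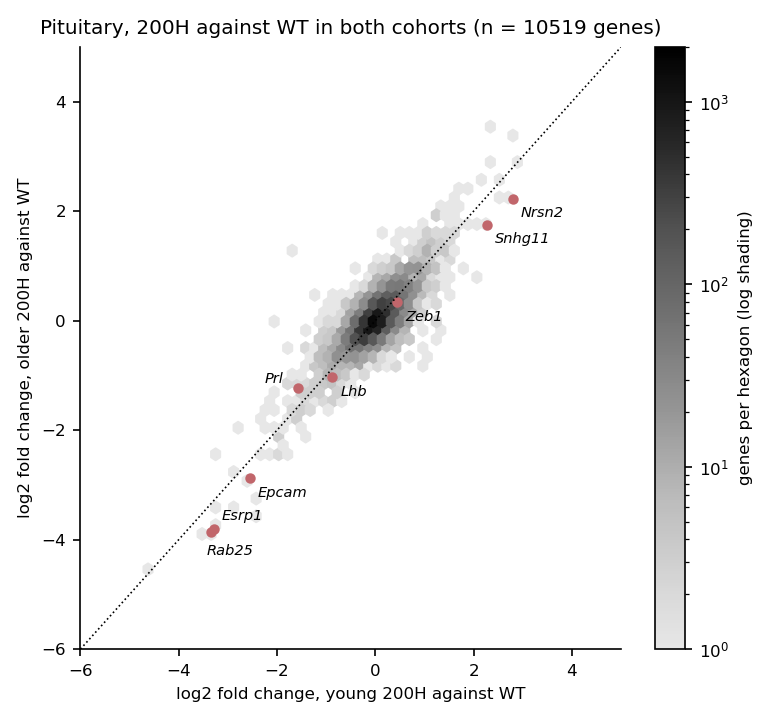
Log2 fold change of 200H against WT in older pituitary (y) against young pituitary (x) for 10519 genes averaging 50 counts or more, shaded by the number of genes in each hexagon (log shading). The cloud lies along the diagonal with Pearson r 0.79, and the named genes are marked at both ends.

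In the other young tissues few genes differed between 200H and WT. In hypothalamus 1 of 14877 genes was raised and 2 were lowered, 0.00672% and 0.0134%, while 585 had an unadjusted p under 0.05 and DESeq2 made 1 call, and leaving out single libraries gave 1, without WT replicate 1, to 8, without 200H replicate 3. In ovary 0 of 19621 were raised (0.00%) and 1 lowered (0.00510%), while 1384 had an unadjusted p under 0.05 and DESeq2 made 75 calls, and leaving out single libraries gave 0, without 6 of the 8 in turn, to 9, without 200H replicate 1. Zeb1 in 200H had a log2 fold change of −0.05 (standard error 0.06) in hypothalamus and −0.05 (standard error 0.073) in ovary. As interactions, its change in pituitary exceeded that in hypothalamus by 0.48 (standard error 0.09, adjusted p = 0.00125) and that in ovary by 0.50 (standard error 0.12, adjusted p = 0.0258). Over all genes the 200H effect was higher in pituitary than in hypothalamus for 663 of 17429 genes (3.80%) and lower for 365 (2.09%). Against ovary it was higher for 296 of 22698 (1.30%) and lower for 217 (0.956%), and the sum of 513 became 329 without pituitary WT replicate u. Hypothalamus libraries held 3321845 to 4673023 counts, fewer than those of pituitary, and ovary libraries 6744987 to 12896366. Nrsn2 showed the contrast in hypothalamus, where it is abundant, with 386 ± 22.1 CPM in WT and 386 ± 23.96 CPM in 200H (SD, n = 4 each), and its effect was higher in pituitary by 2.78 (standard error 0.13, adjusted p = 6.4e-13).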

How the data were processed

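RNA-seq was read from whole pituitary of 3 WT, 4 200H and 4 200M young females, each library being a biological replicate, and from older pituitary, young hypothalamus and young ovary (4 WT and 4 200H each). The values used are raw counts per gene, deposited by the authors. Young libraries were depleted of ribosomal RNA, stranded and paired-end, and were aligned with STAR to mm10 (GRCm38) and their reverse-strand reads counted over GENCODE genes by featureCounts. Older libraries were poly(A)-selected, unstranded and single-end, and were counted with htseq-count over Ensembl genes. The submitters' processing notes name STAR 2.7.1a, HTSeq 0.9.1 and DESeq2 1.18 and 1.38.3. The young 200H table repeats a WT name in its header, so WT counts came from the 200M table. There 1 WT column has a number that no sample title carries, and it enters the group as replicate u. Left out were 3 raw count columns, 38 normalised columns and the authors' own fold change and p-value columns.

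Counts were tested with edgeR 4.0.16 in R 4.3.3 (limma 3.58.1): TMM scaling, filterByExpr, quasi-likelihood F test, two-sided, and Benjamini-Hochberg adjustment over all genes tested, called at an adjusted p under 0.05. Each pair of groups was fitted by itself. The midpoint test took all 11 young pituitary libraries, and interactions took the 4 groups concerned. Log2 fold changes are edgeR's, with its prior count. Each standard error was derived as the absolute log2 fold change divided by the square root of the F statistic. At 7560888 to 13342430 counts per library, counting error is small except for genes of a few CPM, and a count of 0 or near it sets no floor on expression. The procedure was tested on simulated counts. Genes were assigned coordinates, names and UTRs from GENCODE M21 on GRCm38, promoters and microRNAs are RefSeq entries on GRCm38.p6, and UTR matches were counted in the longest annotated 3′ UTR of each gene.

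Genes named are Zeb1, Zeb2 and the miR-200 hosts; the 8 raised and 8 lowered genes of smallest p and the 6 raised and 6 lowered of largest change at 5 CPM or more, without overlap and with a symbol other than a predicted-gene name; up to 4 called members per direction of each list and the members that define it; and up to 5 genes per direction of smallest p in the tests of 200M against 200H, of the midpoint and of the cohorts. Some genes that meet this rule, and a promoter window, are not reported here. The members and lists were chosen with earlier results of these data known. Replicate numbers 1 and 2 are shared by WT and 200H. Deviations of the libraries numbered 1 and 2 from the mean of that pair correlated between genotypes at −0.114 across 13444 genes, and those from the full group mean at −0.0534 for number 1 and −0.168 for number 2, so the numbers do not pair the samples. Alternatives were DESeq2 1.42.0, RLE size factors, unscaled totals, totals without Prl and Gh, no filter, 200M libraries in the fit, leaving out each library, a replicate block, removal of a transcript length trend and a test against a fold of 1.2. For the midpoint test, the midpoint of the mean CPM on the linear scale, fitted with limma, was a further alternative. The crossed block was added after seeing the data.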

Additional observations from a re-analysis of the deposited data

Results flagged for a closer look

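Within the 4 young 200H pituitary libraries, 182 groups of values (177 named genes and 5 summed lists) were examined for a library far from the other three, by Dixon's test. It marked 5, where chance marks about 1 in 20, and 2 of the 5 fell in 200H replicate 3, the library that also stood apart over all genes. In that replicate Cntn1 was at 224 CPM and Fos at 202.5 CPM. In the others Col1a2 was at 206 CPM in 200H replicate 2, Gm15884 at 0.948 CPM in 200H replicate 4 and Vim at 10.7 CPM in 200H replicate 1. Cntn1, Col1a2 and Gm15884 were called with that library and without it, and Vim was uncalled both ways. Fos was uncalled with 200H replicate 3 and called as lowered without it.

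By interaction tests the effect of 1 altered allele differed between young and older pituitary for 2 genes, between young pituitary and young hypothalamus for 1028 genes and between young pituitary and young ovary for 513 genes. For Zeb1 the log2 fold change in pituitary exceeded that in hypothalamus by 0.48 and that in ovary by 0.50. For Nrsn2 it exceeded that in hypothalamus by 2.78. Between young and older pituitary the log2 fold change differed by −1.29 for Leng1 and by −3.07 for Gm14377, and age, breeding history, library type and counting tool cannot be told apart in these values.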

How the results depend on the processing

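Of 18051 genes tested, 2218 were called in young 200H against WT, and 892 when tested against a fold of 1.2. Leaving out 1 library gave 1196 to 2259, where 2 WT libraries leave fewer samples. The other alternatives gave 1678, with a replicate block over the 2 shared numbers, which keeps only the 4 libraries numbered 1 or 2, to 2923, with unscaled totals, and the block with crossed numbers gave 2343. Replicate numbers are shared labels only, so a call lost under the block is no sign of a weaker effect, and a call gained is no sign of a stronger one. In 200M against WT the 3913 calls became 2904 to 3849 without 1 library and 2691 with the replicate block. In 200M against 200H the 7 became 47 by DESeq2, 0 to 26 without 1 library and 0 with the replicate block. At the midpoint the 297 became 479 by DESeq2, 168 to 333 without 1 library and 115 with the replicate block. With the midpoint on the linear scale there were 208, of which 50 lay above and 158 below. In older pituitary the 1825 became 1159 to 1826 without 1 library. Between cohorts the 2 became 4 by DESeq2, 132 with no filter, 0 to 5 without 1 library and 0 with the replicate block. In hypothalamus the 3 became 1 by DESeq2 and 1 to 8 without 1 library, and in ovary the 1 became 75, 0 to 9, and 0 with the replicate block. The tissue interactions of 1028 and 513 became 683 and 79 with the replicate block, and that with ovary 914 by DESeq2 and 329 to 627 without 1 library. The cause was not tested in these cases.

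Of 132 named genes called, 93 were called in every alternative other than the test against a fold of 1.2, and none of the named genes reversed a call. With the replicate block 20 lost their calls and 4 gained one, S100a1, Hba-a1, Fshb at −0.97 (adjusted p = 8.98e-12) and Fos at −2.92 (adjusted p = 5.77e-22). Those lost, at adjusted p up to 0.38, included Rpl4, Rps2, Thy1 and Cdh2. In the lists, the block left 2 ribosomal genes lowered and 3 miR-200 targets raised, and made 12 immediate early genes lowered. With unscaled totals, 2328 of all 18051 genes were raised, at a median log2 fold change of 0.13. There 23 of 48 synaptic, 18 of 63 axon guidance, 13 of 24 miR-200 target and 10 of 21 granule genes were raised, which includes that general shift. With 3 WT libraries, of which any one removed leaves 2, small changes and genes under about 2 CPM are the least certain.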
